A study of Mus musculus with 18 samples.

Results

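Epididymal white adipose tissue (eWAT), the visceral fat pad that lies against the epididymis in male mice, was compared between 3 KO and 3 WT libraries, which are 6 of the 18 poly(A)-selected RNA-seq libraries of a study that also profiled inguinal fat (iWAT) and liver. The KO mice were Bckdha f/f;RIP-Cre and the WT mice were Bckdha f/f, so both groups carried the floxed Bckdha allele and the presence of Cre was the only labelled difference. All 6 came from C57BL/6 animals aged 12 weeks. Members were taken by tissue and genotype label, and the comparison was repeated on the 5 libraries in which Adipoq, the gene of the adipocyte hormone adiponectin, reached at least 100 CPM (counts scaled to a common library total) of the unscaled total, which left out WT2.

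The enzyme complex that oxidises branched-chain ketoacids, of which Bckdha gives a catalytic E1 subunit, commits the carbon skeletons of leucine, isoleucine and valine to oxidation in mitochondria. The rat insulin promoter (RIP) drives Cre in pancreatic beta cells and is known to be active in some hypothalamic neurons as well, neither of which was profiled, so fat is not the tissue that this Cre targets. A group carrying RIP-Cre without the floxed allele was not analysed here, and an effect of Cre itself cannot be told apart from that of the deletion. White fat turns glucose and acetate into fatty acids through citrate export, acetyl-CoA carboxylation, fatty acid synthesis, elongation and desaturation, a program that insulin and the transcription factors SREBP-1c (from Srebf1) and ChREBP (from Mlxipl) drive. SREBP-2 (from Srebf2) drives the parallel program of sterol synthesis.

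The 6 libraries held 16796147 to 24357859 expected counts over 15874 to 18497 genes with reads, and they did not all hold the same tissue. Adipoq stood at 1231, 2355 and 1569 CPM of the unscaled total in KO1, KO2 and KO3, against 2733, 17.1 and 2918 in WT1, WT2 and WT3. In WT2 the most abundant transcript was Gpx5, a secreted protein of the epididymal head, at 43852 CPM, or 4.39% of counts, where the other 5 libraries had between 0 and 27.3. WT2 also held 9017 CPM of Adam7, another epididymal gene, which was at most 6.55 elsewhere.

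Over the 18 epididymal genes of the marker list the summed level, scaled by TMM factors, was 1713, 26.1 and 2160 CPM in KO1, KO2 and KO3, against 57.0, 73874 and 2.73 in WT1, WT2 and WT3. A set of these genes was shared by 3 libraries. Crisp1, a sperm-coating protein, reached 1805 and 1906 CPM in KO1 and KO3 and 1082 in WT2, and stayed between 1.09 and 1.90 in KO2, WT1 and WT3. Smooth muscle transcripts followed the same division: Myh11, smooth muscle myosin, was at 1633, 49.0 and 1479 CPM in KO1, KO2 and KO3 and at 119, 264 and 60.0 in WT1, WT2 and WT3. Sperm transcripts were found as well, with Prm2, a sperm protamine, at 355 CPM in KO1 and 41.9 in WT2. Without these 3 libraries KO2, WT1 and WT3 remain, and some results are given in that set too, where KO is a single library. WT3 stood apart in another way, with 15.5% of its counts from the mitochondrial genome, against 3.35% to 5.97% in the other 5. Part of the contrast between KO1 and KO3 on 1 side and WT1 and WT3 on the other therefore runs with the amount of epididymal and smooth muscle RNA, and its share in the results was not tested. Fewer cells of a type and less RNA per cell cannot be told apart in bulk tissue.

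**Figure D1:**
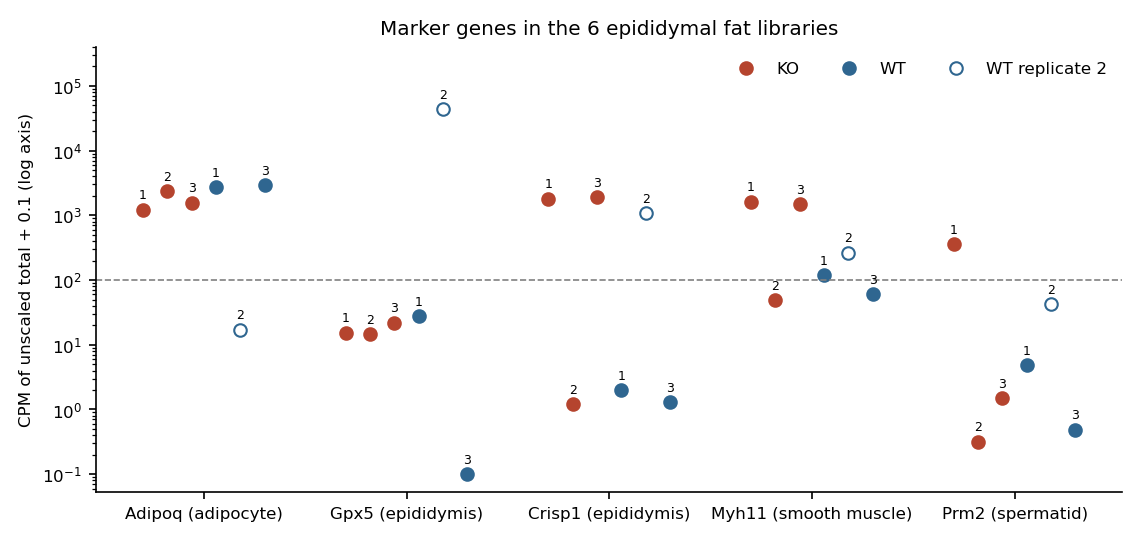
Levels of adipocyte (Adipoq), epididymal (Gpx5, Crisp1), smooth muscle (Myh11) and sperm (Prm2) transcripts in each eWAT library, as CPM of the unscaled total plus 0.1 on a log axis, with KO libraries left of WT libraries; the dashed line marks 100 CPM. WT2 alone lies under that line for Adipoq (17.1 CPM) and alone is high for Gpx5 (43852 CPM), while Crisp1 is abundant in KO1, KO3 and WT2.

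No gene passed the test in either comparison: of 14657 genes tested over all 6 libraries 0 passed an adjusted p of 0.05 in edgeR's quasi-likelihood test (0%), and of 14957 tested over the 5 libraries 0 passed (0%). The smallest adjusted p by edgeR was 0.508 with 6 libraries and 0.194 with 5. At an unadjusted p under 0.05, 498 genes were higher and 511 lower in KO with 6 libraries, and 1144 were higher and 1508 lower with 5. DESeq2 on the same counts called 68 higher (0.581%) and 55 lower (0.47%) with 6 libraries, and 483 higher (3.53%) and 946 lower (6.91%) with 5, as shares of the genes it gave an adjusted p, while limma-voom called 0 in both sets, with 757 and 2304 genes at an unadjusted p under 0.05. Adding the iWAT and liver libraries to estimate the spread between samples, edgeR called 30 higher (0.191%) and 24 lower (0.153%) when all 18 libraries entered, and 189 higher (1.18%) and 476 lower (2.98%) when WT2 was left out of that fit (17 libraries). Most libraries of these fits are iWAT or liver, so their spread may be smaller than that among the eWAT libraries, which was not tested. The 5-library result rests on single libraries: leaving out KO2 as well gave 68 higher and 4 lower calls, leaving out WT1 gave 1 call, and leaving out KO1, KO3 or WT3 gave 0. The labels do not say that replicates were separate animals, so the tests measure the spread between these samples.

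Since no gene passed, genes are described by whether they held in both comparisons, that is, had an unadjusted p under 0.05 and the same direction with and without WT2. Of the 14657 genes tested in both, 362 held with higher levels in KO (2.47%) and 352 held with lower levels in KO (2.4%). The pair of fits shares 5 libraries, so holding is a count and not independent evidence. The 714 genes were 70.8% of the 1009 at an unadjusted p under 0.05 with 6 libraries, and 27.3% of the 2620 among them with 5. In 674 of them all KO libraries lay on 1 side of all WT libraries. The named genes that held were taken from these in order of p. Their lack of overlap and small spread therefore follow from that naming rule. A difference of at least 2-fold in both fits was found for 187 higher and 88 lower genes. All 123 genes that DESeq2 called with 6 libraries were among the 714. The number that held fell to 438 without KO1, 280 without KO3 and 188 without WT3, and the values on the FPKM scale gave 1166 higher and 54 lower genes, beside 362 and 352 from counts; on that scale the median of all genes was shifted by 0.31 with 6 libraries and 0.43 with 5 (log2).

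**Figure D2:**
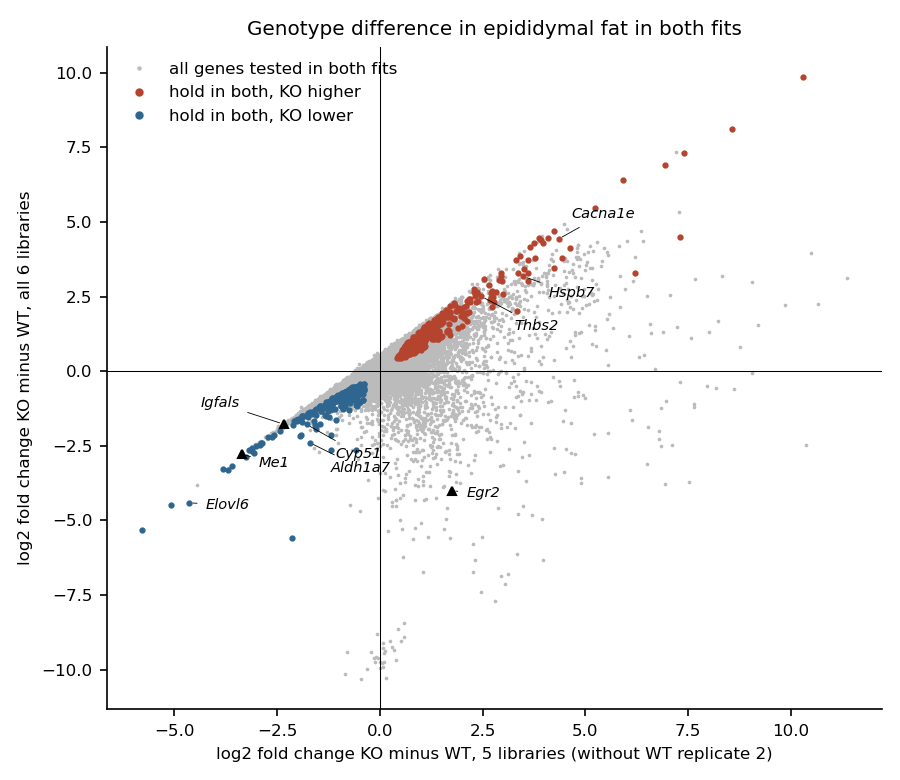
Log2 fold change, KO over WT, of each gene tested in both comparisons, with 5 libraries on the x axis and all 6 on the y axis; red points are the 362 genes that held with higher levels in KO, blue points the 352 that held with lower levels, and black triangles name Me1, Igfals and Egr2, which did not hold. Genes far from the diagonal are those that WT2 moves, such as Egr2, at 1.75 with 5 libraries and -4.01 with 6.

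The targeted gene was lower in KO fat once WT2 was left out, and lay between the WT libraries with it. Bckdha (chromosome 7, 25629946 to 25658981, mm10) had 103, 147 and 160 CPM, scaled by TMM factors as are all CPM from here on, in KO1, KO2 and KO3, against 219, 52.9 and 348 in WT1, WT2 and WT3. The KO libraries lay under WT1 and WT3 and over WT2. The log2 fold change was -1.04 ± 0.28 (SE) with 5 libraries, with an adjusted p of 0.222 by edgeR and of 0.0159 by DESeq2 in a range of 0.0159 to 0.868 over the settings tried. With 6 libraries it was -0.59, and 0.06 without WT3 and 0.09 on the log2(FPKM + 1) scale, so its direction there differed between settings. The Bckdha gene overlaps B3gnt8 on the other strand by 5155 bases, and reads of an overlapping pair cannot be told apart where strand is not recorded in the sources used here. Levels over the whole gene do not show whether the floxed exon was present.

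Genes of the same complex and of the steps after it were lower in KO than in WT1 and WT3, but few of them held. All 6 members of the complex and its regulators had negative fold changes with 5 libraries (median -1.18, or -0.70 without WT3, against 0.16 over all genes tested), 5 of them with KO under WT1 and WT3, where 19.6% of all genes were placed so; none held, and WT2 lay at or under the highest KO library in each. Dld, the shared E3 subunit, had 90.4, 138 and 124 CPM in KO1, KO2 and KO3, against 254, 71.2 and 538 in WT1, WT2 and WT3. Of 23 genes of branched-chain amino acid breakdown, 21 were lower in KO with a median of -1.07. Of these genes 3 held with lower levels, against 2.4% of all genes. They were Mmab, which makes the cobalamin cofactor used in propionate disposal, Mcee, the methylmalonyl-CoA epimerase, and Acad8, the isobutyryl-CoA dehydrogenase of valine breakdown. Mmab was at 17.5, 10.9 and 12.8 CPM in KO, against 40.2, 22.3 and 34.9 in WT, so that the groups did not overlap. Acad8 was at 29.9, 37.0 and 41.2 CPM in KO, against 52.2, 68.8 and 54.5 in WT, with its highest level in WT2. Without WT3 the median of the breakdown genes was -0.78.

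The genes of fatty acid synthesis had lower medians in KO in each set of libraries. All 19 had negative fold changes with 5 libraries, with a median of -2.31, and all 19 with 6, with a median of -1.77; between KO2 and WT1 and WT3 the median was -2.62. In 18 of the 19 all KO libraries lay under WT1 and WT3, where 19.6% of all genes were placed so. In edgeR's fit of 17 libraries 17 passed an adjusted p of 0.05, all lower in KO as were 2.98% of all genes, although 0 passed in the eWAT fits. WT2, which held few adipocyte transcripts, lay at or under the highest KO library in 16 of the 19. Of the list 5 held, against 2.4% of all genes with lower levels: Elovl6, Acly, Acss2, Slc25a1 and Scd2.

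Elovl6, the elongase that extends palmitate to stearate, differed most among the named genes that held with lower levels in KO. Elovl6 (chromosome 3, 129532355 to 129638495) had 24.6, 12.3 and 31.0 CPM in KO1, KO2 and KO3, against 383, 282 and 778 in WT1, WT2 and WT3. Every KO library was under every WT library, including the epididymis-rich WT2, as the naming rule required. The means were 22.6 ± 9.53 in KO and 481 ± 262 in WT (SD, n = 3 each), and the log2 fold change was -4.41 with 6 libraries, -4.65 ± 0.53 (SE) with 5 and -5.58 between KO2 and WT1 and WT3. With the summed epididymal level as a covariate in the 5-library fit it was -5.11, and with the mean adipocyte level it was -5.01. The adjusted p of edgeR was 0.633 with 6 libraries and 0.194 with 5, and in the fit of 17 libraries 0.00137, in a range from 9.96e-17 to 0.868 over the settings tried.

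Transcripts of genes that supply cytosolic acetyl-CoA were lower in KO than in WT1 and WT3. Acly, which splits exported citrate into acetyl-CoA, had 478, 466 and 938 CPM in KO1, KO2 and KO3, against 5324, 1749 and 6792 in WT1, WT2 and WT3, and WT2 still exceeded each KO library. Slc25a1, the mitochondrial citrate carrier, had 125, 141 and 216 CPM in KO, against 831, 95.8 and 1781 in WT. Acss2, which makes acetyl-CoA from acetate, had 36.7, 55.8 and 60.0 CPM in KO, against 288, 29.5 and 394 in WT. For Slc25a1 and Acss2 WT2 lay under all KO libraries, and the 5-library log2 fold changes were -3.01 and -2.73 ± 0.26 (SE). Acss2 overlaps Gss on the other strand by 22544 bases.

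Fasn, Me1, Srebf1 and Mlxipl were high in WT1 and WT3 and lower in the other 4 libraries. Fasn, fatty acid synthase, had 1344, 1295 and 3643 CPM in KO1, KO2 and KO3, against 15540, 542 and 18083 in WT1, WT2 and WT3, a log2 fold change of -2.99 ± 0.58 (SE) with 5 libraries. Me1, the malic enzyme that supplies NADPH, had 258, 418 and 492 CPM in KO, against 2967, 40.0 and 5049 in WT, or -3.36 ± 0.41. Both were lowest in WT2 and neither held. Among the regulators, Srebf1 had 294, 316 and 481 CPM in KO, against 1180, 269 and 1708 in WT. Mlxipl had 38.8, 42.8 and 76.1 CPM in KO, against 156, 24.2 and 667 in WT. Scd1, the main delta-9 desaturase of fat, had 9107, 28127 and 23449 CPM in KO, against 55891, 584 and 29385 in WT, so KO2 came close to WT3. Scd2, a related desaturase, was the only desaturase of the list that held, at 483, 264 and 609 CPM in KO, against 1456, 2060 and 1109 in WT. The member nearest to 0 was G6pdx, the entry enzyme of the pentose phosphate pathway, at 209, 348 and 334 CPM in KO, against 330, 301 and 331 in WT.

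**Figure D3:**
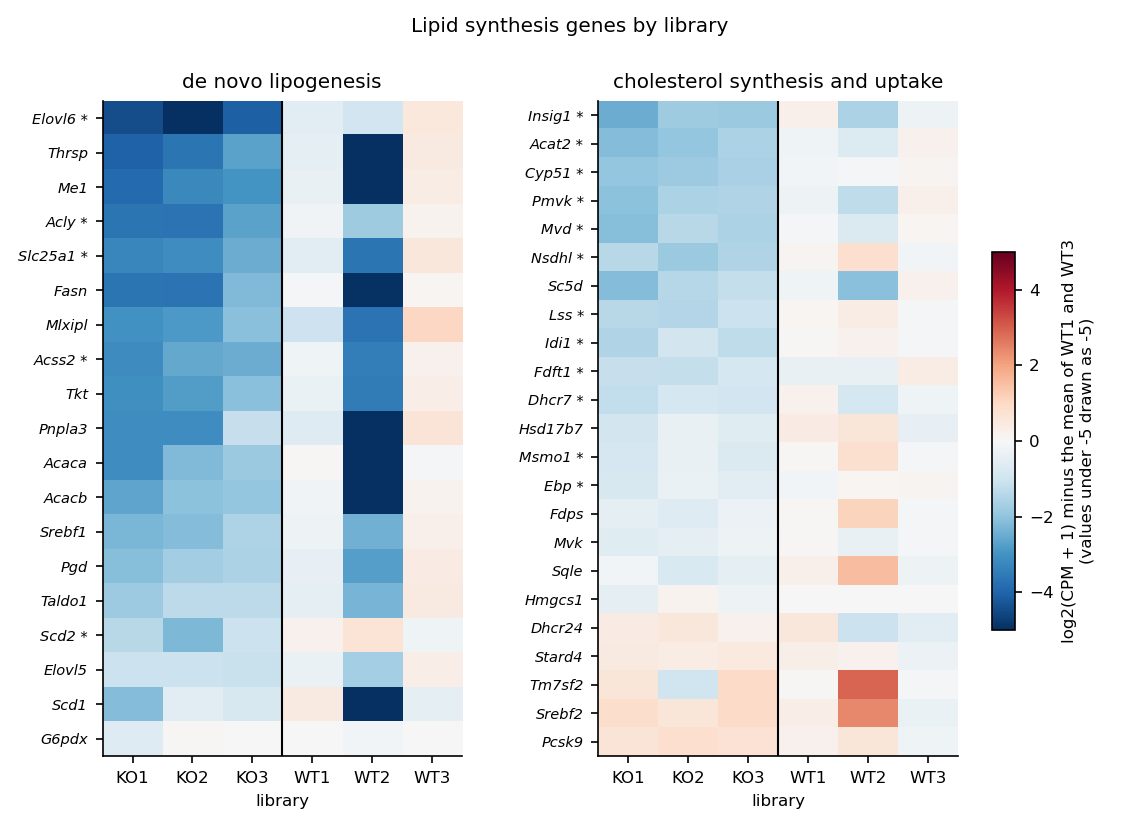
Level of the fatty acid synthesis and cholesterol synthesis genes reported here in each library, as log2(CPM + 1) minus the mean of WT1 and WT3, with KO columns left of WT columns; blue is lower, red is higher, values under -5 are drawn as -5 and an asterisk marks genes that held in both comparisons. The fatty acid genes are low in the 3 KO libraries and in WT2, while most of the starred cholesterol genes are low in the 3 KO libraries alone.

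Cholesterol synthesis genes were lower in KO with WT2 included: the list's mean of log2(CPM + 1) was 4.91, 5.09 and 5.17 in KO1, KO2 and KO3, against 5.82, 5.89 and 5.67 in WT1, WT2 and WT3. Of 25 genes, 21 were lower in KO with 6 libraries (median -0.98) and 19 with 5 (median -0.63), and 12 held with lower levels in KO, against 2.4% of all genes tested in both. In 12 every KO library lay under every WT library, where 7.54% of all genes were placed so, and the comparison of KO2 with WT1 and WT3 gave a median of -0.80. Against WT1 and WT3 alone, all KO libraries lay under in 15 and above in 4, where 19.6% and 17.3% of all genes were placed so. WT2 held few adipocyte transcripts, so its sterol gene levels may not be those of fat, which was not tested. In the fit of 17 libraries 10 passed an adjusted p of 0.05 by edgeR, all lower in KO, against 2.98% of all genes, although 0 passed in the eWAT fits. On the FPKM scale the list's median was -0.22 with 5 libraries, beside 0.43 for all genes.

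The members that held run through the length of the pathway. Acat2, which condenses acetyl-CoA at its start, had 61.3, 72.3 and 93.5 CPM in KO1, KO2 and KO3, against 246, 174 and 324 in WT1, WT2 and WT3. Idi1, the isopentenyl diphosphate isomerase, had 30.0, 46.0 and 35.1 CPM in KO, against 89.9, 100 and 84.3 in WT. Lss, which folds squalene epoxide into lanosterol, had 17.1, 16.1 and 21.1 CPM in KO, against 49.0, 60.1 and 43.0 in WT. The 5-library log2 fold changes were -1.89 for Acat2, -1.21 for Idi1 and -1.31 for Lss. In all 3 genes the groups were apart, as the naming rule required. Cyp51, the lanosterol demethylase (chromosome 5, 4081145 to 4104746), had 51.6, 57.1 and 64.5 CPM in KO, against 185, 192 and 220 in WT. Its means were 57.7 ± 6.48 in KO and 199 ± 18.4 in WT (SD, n = 3 each), and its log2 fold change was -1.78 in both fits, with an SE of 0.17 with 5 libraries. The difference between the Cyp51 means was several times the spread within either group, but the gene was named for its low p and groups apart. The adjusted p of Cyp51 by edgeR was 0.508 with 6 libraries and 0.194 with 5. Cyp51 overlaps Akap9 on the other strand by 166 bases. Nsdhl, a sterol dehydrogenase acting after Cyp51, had 29.7, 20.8 and 27.3 CPM in KO, against 85.8, 143 and 71.3 in WT.

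Pmvk and Mvd of the mevalonate steps, Fdft1 (squalene synthase), and Msmo1, Ebp and Dhcr7 of the later sterol steps also held, with 5-library log2 fold changes from -0.55 for Ebp to -1.75 for Pmvk and Mvd. Insig1, which holds the SREBP proteins in the endoplasmic reticulum and is itself an SREBP target, had 73.5, 120 and 115 CPM in KO1, KO2 and KO3, against 493, 139 and 348 in WT1, WT2 and WT3. The KO libraries were all under WT, though KO2 and WT2 were close. Hmgcs1 and Srebf2 did not separate in this way. Hmgcs1, the cytosolic HMG-CoA synthase, had 159, 245 and 184 CPM in KO, against 222, 214 and 214 in WT. Srebf2 had 83.0, 67.4 and 87.5 CPM in KO, against 56.2, 239 and 35.2 in WT, so it was higher in KO than in WT1 and WT3 and highest in WT2.

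The promoters of these genes were searched for CCAAT, the letters bound by NF-Y, and for TCACNCCAC, a form of the sterol response element, on both strands of RefSeq windows (GRCm38.p6) from 250 bases before to 50 after the annotated start; neither motif contains the other. Of 25 cholesterol genes 17 had a window, and 16 of the 17 (94.1%) held CCAAT, against 42.4% of the 11416 tested genes with a window. CCAAT was in 10 of 11 (90.9%) that held with lower levels in KO and in 6 of 6 (100%) that did not hold. Of the 17 fatty acid synthesis genes with a window, 13 (76.5%) held CCAAT. These were 3 of 4 that held with lower levels in KO and 10 of 13 that did not hold. In neither list did the motif separate genes that held from the others. The share was 49.8% over all 273 genes that held with lower levels in KO and 40.6% over the 293 with higher levels. TCACNCCAC was found in 1 of the 17 cholesterol windows and in 1.40% of those of all tested genes. The 150 bases before the start are shown for 4 cholesterol genes and for the fatty acid synthesis genes Acss2 and Elovl6, all of which held; capitals mark CCAAT or its complement ATTGG, and the sequences run 5′ to 3′ on the gene's strand. They lie at chr5:4104698-4104847 on the minus strand for Cyp51 and, on the plus strand, at chr10:76531455-76531604 for Lss, chrX:72918371-72918520 for Nsdhl, chr13:8885456-8885605 for Idi1, chr2:155517893-155518042 for Acss2 and chr3:129532236-129532385 for Elovl6.
Cyp51: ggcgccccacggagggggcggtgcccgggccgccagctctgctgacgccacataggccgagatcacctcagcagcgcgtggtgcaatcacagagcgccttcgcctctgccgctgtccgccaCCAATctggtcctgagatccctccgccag
Lss: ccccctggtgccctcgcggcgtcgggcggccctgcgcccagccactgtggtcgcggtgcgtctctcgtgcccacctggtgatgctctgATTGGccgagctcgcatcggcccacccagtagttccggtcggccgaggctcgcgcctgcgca
Nsdhl: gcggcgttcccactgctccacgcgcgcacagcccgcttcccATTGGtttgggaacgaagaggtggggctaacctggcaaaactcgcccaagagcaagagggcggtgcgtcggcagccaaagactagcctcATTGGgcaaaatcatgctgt
Idi1: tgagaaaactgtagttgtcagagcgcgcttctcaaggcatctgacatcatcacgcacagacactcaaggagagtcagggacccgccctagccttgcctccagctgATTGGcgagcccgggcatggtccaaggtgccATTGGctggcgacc
Acss2: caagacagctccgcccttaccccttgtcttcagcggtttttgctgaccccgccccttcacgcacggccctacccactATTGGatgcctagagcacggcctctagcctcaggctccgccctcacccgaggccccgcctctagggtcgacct
Elovl6: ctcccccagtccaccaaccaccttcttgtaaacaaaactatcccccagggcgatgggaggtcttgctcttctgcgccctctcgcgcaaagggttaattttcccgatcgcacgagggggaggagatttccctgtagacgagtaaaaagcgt

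Cyp51, Lss and Acss2 have a single match in these 150 bases, Nsdhl and Idi1 have 2 each, and Elovl6 has none. A match is a string of letters and was not tested as a binding site here.

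Genes that move pyruvate into mitochondria and oxidise it were lower in KO than in WT1 and WT3. Pdk1, the kinase that inhibits pyruvate dehydrogenase, was the member that held: it had 54.4, 67.3 and 67.4 CPM in KO1, KO2 and KO3, against 160, 154 and 215 in WT1, WT2 and WT3, a log2 fold change of -1.48 with 6 libraries and -1.55 ± 0.20 (SE) with 5. No KO library reached the lowest WT library, as the naming rule required. Pdhb, the beta subunit of pyruvate dehydrogenase itself, had 110, 140 and 167 CPM in KO, against 565, 74.4 and 1136 in WT. Mpc2, a subunit of the mitochondrial pyruvate carrier, had 55.5, 71.9 and 59.5 CPM in KO, against 200, 29.8 and 387 in WT. WT2 was the lowest library for both Pdhb and Mpc2, and neither held. Over the 25 genes of glycolysis and pyruvate entry, 20 were lower in KO with 5 libraries, with a median of -0.59, which was -1.0 without KO2 and -0.33 without WT3. Of the 25, 1 held with lower levels, against 2.4% of all genes.

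The respiratory chain and the TCA cycle followed the same pattern, and its size rested largely on WT3. All 48 nuclear oxidative phosphorylation genes were lower in KO with 5 libraries (median -1.19), 47 with KO under WT1 and WT3, where 19.6% of all genes were placed so, and 9 held, against 2.4% of all genes, among them Cox7b, Cycs and Ndufv2. Of 19 TCA cycle genes 18 were lower (median -1.13), and Mdh1, the cytosolic malate dehydrogenase, held. All 13 genes of the mitochondrial genome were lower (median -1.95) and none held. By edgeR's fit of 17 libraries 29 of the 48, 16 of the 19 and 11 of the 13 passed, where 2.98% of all genes passed with lower levels in KO. None of these genes passed in the eWAT fits. Without WT3, the library with the large mitochondrial share, the medians were -0.73, -0.83 and -0.79. Uqcrc2, a core protein of complex III, had 130, 149 and 159 CPM in KO1, KO2 and KO3, against 288, 145 and 422 in WT1, WT2 and WT3. Idh3a, of the TCA cycle, had 90.6, 136 and 117 CPM in KO, against 263, 57.2 and 433 in WT. Both were lower in KO than in WT1 and WT3. For Uqcrc2 WT2 lay among the KO libraries, and for Idh3a it lay under all of them. Fatty acid oxidation genes were lower in 20 of 22, with a median of -1.13 (-0.75 without WT3) and 0 that held; Cpt2, the inner carnitine palmitoyltransferase, had 75.5, 112 and 100 CPM in KO, against 192, 35.7 and 244 in WT.

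Of 14 mature adipocyte genes 12 were lower in KO with 5 libraries, 7 of them with KO under WT1 and WT3, as were 19.6% of all genes, and 0 held. Plin1, the lipid droplet coat protein, had 814, 1506 and 1278 CPM in KO1, KO2 and KO3, against 1427, 10.8 and 1388 in WT1, WT2 and WT3, so KO2 exceeded both WT1 and WT3. Lipe, hormone-sensitive lipase, had 816, 1343 and 1308 CPM in KO, against 1375, 22.7 and 1588 in WT. In Lipe KO2 and KO3 came close under WT1. The median over the list was -0.57 with 5 libraries, -0.38 without KO1, -0.87 without KO2 and -0.26 without WT3, and -0.21 between KO2 and WT1 and WT3. Of 23 genes of triglyceride storage and lipolysis 20 were lower with 5 libraries (median -0.79, or -1.20 without KO2). All KO libraries lay under WT1 and WT3 in 13 and above them in 2, where 19.6% and 17.3% of all genes were placed so. With lower levels in KO 0 held and with higher levels 1, Pck1, against 2.4% and 2.47% of all genes. Gpd1, which makes glycerol phosphate, had 501, 504 and 951 CPM in KO, against 3266, 139 and 4381 in WT. Agpat2, the acyltransferase of the next steps, had 150, 248 and 304 CPM in KO, against 1278, 29.9 and 2235 in WT, a log2 fold change of -2.90 ± 0.40 (SE) with 5 libraries. In both genes every KO library lay between WT2 and the other WT libraries.

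Pck1 went the other way. This gene encodes the cytosolic PEP carboxykinase of glyceroneogenesis, which insulin represses, and had 635, 2472 and 645 CPM in KO1, KO2 and KO3, against 285, 8.53 and 151 in WT1, WT2 and WT3. Every KO library was above every WT library, and Pck1 held (2.54 with 5 libraries). The insulin-responsive glucose transporter Slc2a4 (GLUT4) had 106, 137 and 208 CPM in KO, against 466, 12.0 and 755 in WT, a log2 fold change of -2.01 ± 0.35 (SE) with 5 libraries. Of the 16 insulin signalling genes 8 were higher and 8 lower, with a median of 0.04 (-0.16 to 0.13 when single libraries were left out) and 0 that held. Pik3r1, the regulatory subunit of PI3-kinase, had 254, 278 and 340 CPM in KO, against 727, 111 and 704 in WT. Irs2, an insulin receptor substrate that insulin also represses, had 53.1, 75.1 and 72.4 CPM in KO, against 38.1, 44.7 and 13.7 in WT, and its KO libraries were all above WT.

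Secreted adipocyte factors were divided. Adiponectin itself, read on the scaled values, had 961, 2323 and 1441 CPM of Adipoq in KO1, KO2 and KO3, against 2969, 17.1 and 3883 in WT1, WT2 and WT3. Cfd (adipsin) had 2646, 4281 and 4038 CPM in KO, against 9129, 58.1 and 18568 in WT. Both were lower in KO than in WT1 and WT3. Lep (leptin) had 868, 1222 and 1371 CPM in KO, against 725, 8.05 and 273 in WT, with all KO libraries above all WT libraries; its log2 fold change was 1.24 ± 0.46 (SE) with 5 libraries and it did not hold. Sfrp5, a secreted Wnt inhibitor, was the member of 11 that held, at 27.1, 24.7 and 26.9 CPM in KO, against 3.25, 0.119 and 0.968 in WT, or 3.66 ± 0.46. Of all genes 2.47% held with higher levels. Mest, an imprinted gene known as a marker of fat mass expansion in mice, had 243, 155 and 98.4 CPM in KO, against 30.1, 2.57 and 4.55 in WT, and also held (3.33 ± 0.89). Mest overlaps Copg2 on the other strand by 912 bases.

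Thbs2, Synpo2, Hspb7, Cotl1 and Limch1 were among the named genes that held with higher levels in KO. Thbs2, the matricellular protein thrombospondin 2 (chromosome 17, 14665500 to 14694235), had 118, 160 and 152 CPM in KO1, KO2 and KO3, against 32.1, 22.4 and 21 in WT1, WT2 and WT3. Its means were 143 ± 22.0 in KO and 25.1 ± 6.03 in WT (SD, n = 3 each), with log2 fold changes of 2.51 with 6 libraries, 2.46 ± 0.24 (SE) with 5 and 2.59 between KO2 and WT1 and WT3. Thbs2 was high in KO2 as well as in KO1 and KO3. Synpo2, an actin-binding protein of smooth and skeletal muscle, had 240, 176 and 250 CPM in KO, against 38.6, 18.9 and 22.8 in WT. KO2 was near KO1 and KO3 here as well, at 176 CPM. Myh11 was 48.4 CPM in KO2 and 1274 and 1358 in KO1 and KO3. The log2 fold change of Synpo2 was 2.52 between KO2 and WT1 and WT3, where KO is a single library. The share of smooth muscle RNA in these differences was not tested. Hspb7, a small heat shock protein of striated muscle, had 33.9, 36.5 and 33.2 CPM in KO, against 4.49, 5.19 and 1.76 in WT. Cotl1, an F-actin-binding protein, had 117, 148 and 126 CPM in KO, against 43.3, 22.0 and 26.9 in WT. Limch1, a regulator of non-muscle myosin, had 43.4, 36.3 and 48.9 CPM in KO, against 20.5, 15.6 and 13.7 in WT. The groups did not overlap for any of these 5 genes, as the naming rule required.

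Other matrix genes were mostly higher in KO, and few of them held. Of 24 matricellular proteins, fibrillins and proteoglycans 21 were higher with 5 libraries (median 0.70, or 1.42 without WT1 and 0.44 without WT3) and 5 held: Thbs2, Thbs1, Fbn1, Bgn and Ccn1, against 2.47% of all genes tested in both. All KO libraries lay above all 3 WT libraries in 7 of the 24, where 7.46% of all genes were placed so, and above WT1 and WT3 in 8, where 17.3% were. Thbs1 had 114, 1224 and 116 CPM in KO1, KO2 and KO3, against 42.0, 33.8 and 29.0 in WT1, WT2 and WT3, so KO2 stood far above the other KO libraries. Bgn (biglycan) was more even, with 514, 419 and 547 CPM in KO, against 362, 174 and 195 in WT. Of 19 remodelling enzymes 18 were higher (median 0.56, or 0.96 without WT1), and Adamts1, a secreted protease, held at 124, 175 and 99.4 CPM in KO, against 57.3, 19.2 and 25.8 in WT. The 17 collagens had a median of 0.79, with 15 higher and 0 that held, and this was 1.69 without WT1 and 0.23 without WT3. Col1a1 had 240, 202 and 240 CPM in KO, against 205, 52.7 and 41.7 in WT, so WT1 was near the KO libraries.

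**Figure D4:**
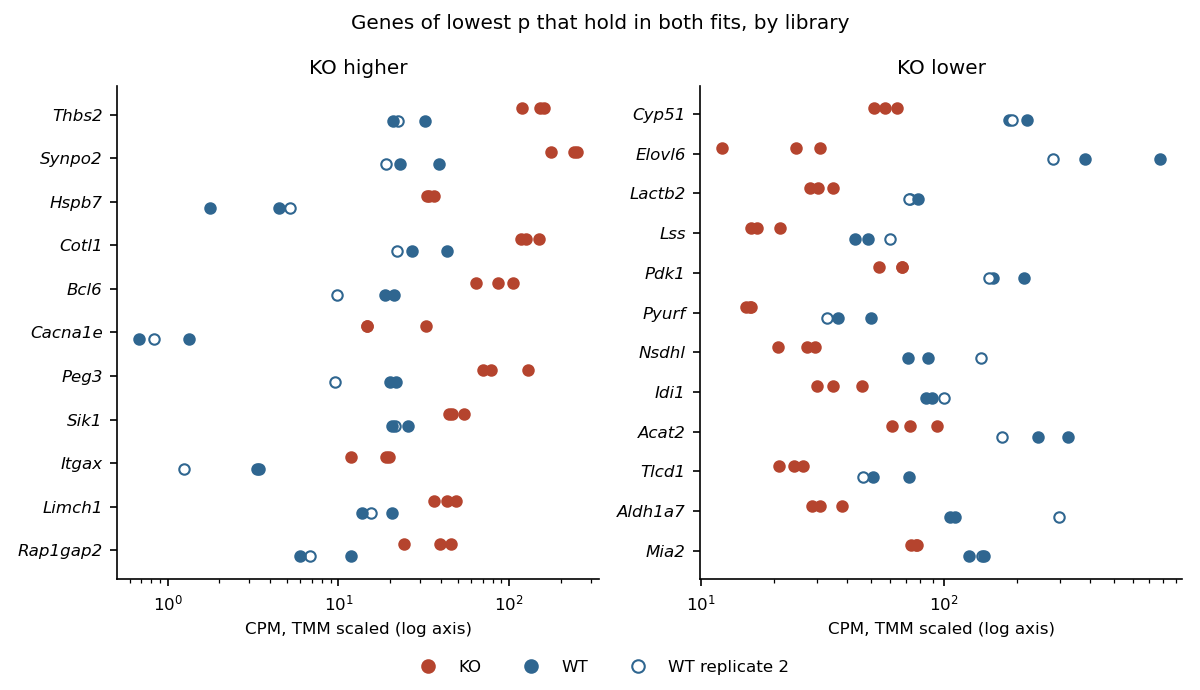
CPM on a log axis, in each library, of the named genes that held in both comparisons and are described here, with higher levels in KO on the left and lower on the right, with KO points above WT points and WT2 drawn as an open symbol. By the rule that named these genes, the 3 KO points lie on 1 side of the 3 WT points in each. Cyp51, for example, has 51.6 to 64.5 CPM in KO and 185 to 220 in WT.

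All 12 macrophage genes tested had positive fold changes with 5 libraries, as did 59.9% of all genes, and 4 held, against 2.47% of all genes. Their median was 0.84, or 1.3 without WT1 and 0.43 without WT3; in 4 all KO libraries lay above WT1 and WT3, where 17.3% of all genes were placed so, and the mean of log2(CPM + 1) was 5.90 to 6.57 in KO, against 5.62, 4.27 and 5.04 in WT1, WT2 and WT3. Itgax (CD11c), a surface integrin of macrophages and dendritic cells that accumulate in obese fat, had 19.1, 11.9 and 19.9 CPM in KO1, KO2 and KO3, against 3.35, 1.25 and 3.42 in WT. Cd68, a lysosomal macrophage protein, had 86.8, 155 and 95.2 CPM in KO, against 53.6, 26.4 and 36.1 in WT. Trem2, a lipid receptor of macrophages, had 12.9, 17.3 and 18.3 CPM in KO, against 8.51, 4.53 and 10.3 in WT. Mpeg1, the pore-forming protein perforin 2, held too. KO exceeded WT in each of the 4. Mrc1, a marker of resident macrophages, had 129, 295 and 155 CPM in KO, against 211, 19.6 and 109 in WT, and did not separate the groups.

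The medians of the inflammatory and neutrophil lists rested on KO2. The 14 inflammatory mediators had a median of 1.96 with 5 libraries and 0.10 without KO2. Ccl2, a monocyte chemokine, had 1.83, 83.4 and 1.07 CPM in KO1, KO2 and KO3, against 1.34, 0.298 and 1.20 in WT1, WT2 and WT3. Csf3r, the G-CSF receptor of neutrophils, had 2.92, 83.6 and 5.09 CPM in KO, against 4.64, 1.91 and 3.76 in WT. KO2 alone was high in both genes. The 6 neutrophil genes had a median of 2.14, which was -1.49 without KO2 and 1.09 without WT3. Ptgs2 (cyclooxygenase 2) had the opposite distribution, at 1028, 7.23 and 1422 CPM in KO, against 3.35, 4.47 and 1.02 in WT: it held, with its high values in the 2 KO libraries that carried Crisp1.

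All 15 immediate early genes had positive fold changes with 5 libraries (median 1.18, against 0.16 over all genes), as did 59.9% of all genes. Atf3, Jun and Egr1 held, where 2.47% of all genes held with higher levels. Atf3, a stress-induced transcription factor, had 11.9, 17.9 and 15.3 CPM in KO1, KO2 and KO3, against 7.12, 6.14 and 5.47 in WT1, WT2 and WT3. Sik1, a cAMP-induced kinase, was among the named genes that held, with 46.3, 44.1 and 54.0 CPM in KO, against 25.4, 21.5 and 20.5 in WT. The groups did not overlap in either gene, and for Sik1 the naming rule required this. Of 14 heat shock genes 8 were higher and 6 lower, with a median of 0.13 (-0.11 without KO2). Hspb7, Bag3 and Dnajb1 held, beside the same 2.47% of all genes. Hspa1a and Hspa1b, which are nearly identical and whose reads may be split between them, had 46.6 to 116 and 80.0 to 133 CPM in KO, against 15.6 and 7.91, and 37.3 and 18.9, in WT1 and WT3, and 53.3 and 110 in WT2.

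Genes of the growth hormone axis went in both directions. Bcl6, a transcriptional repressor that growth hormone lowers through STAT5, had 63.4, 106 and 86.4 CPM in KO1, KO2 and KO3, against 18.7, 9.78 and 21.2 in WT1, WT2 and WT3, with log2 fold changes of 2.36 with 6 libraries and 2.11 ± 0.25 (SE) with 5. Cish, a STAT5 target and inhibitor of cytokine receptors, had 13.2, 5.61 and 14.7 CPM in KO, against 54.9, 8.47 and 70.4 in WT, and held with lower levels (-2.44 ± 0.42). Cish in WT2 lay among the KO libraries. Igfbp3, an IGF-binding protein, held with higher levels, at 93.6, 179 and 96.5 CPM in KO, against 44.2, 40.3 and 61.8 in WT. Igfals, the acid-labile subunit of the circulating IGF complex, had 6.19, 11 and 11.7 CPM in KO, against 51.7, 0.537 and 46.5 in WT. Igf1 had 101, 126 and 94.2 CPM in KO, against 238, 12.7 and 218 in WT. Both were lower in KO than in WT1 and WT3 and lowest in WT2, and neither held. Over the 17 genes of the axis 10 were higher and 7 lower, with a median of 0.05 (-0.27 to 0.47 when single libraries were left out). Of the 17, 2 held with higher and 1 with lower levels, against 2.47% and 2.4% of all genes. All KO libraries lay above WT1 and WT3 in 3 and under them in 4, where 17.3% and 19.6% of all genes were placed so.

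Further named genes that held have varied roles. Peg3, an imprinted zinc finger protein, had 70.0, 129 and 78.3 CPM in KO1, KO2 and KO3, against 21.9, 9.55 and 20.1 in WT1, WT2 and WT3. Cacna1e, a voltage-gated calcium channel subunit, had 14.6, 32.8 and 14.7 CPM in KO, against 1.34, 0.835 and 0.683 in WT. Both were higher in every KO library, and Rap1gap2, a Rap GTPase activator, was as well. On the lower side, Lactb2, a mitochondrial endoribonuclease, had 28.2, 35.1 and 30.4 CPM in KO, against 72.5, 72.1 and 78.7 in WT. Pyurf, Tlcd1 and Mia2 had narrow KO ranges of 15.3 to 16.1, 20.9 to 26.4 and 73.3 to 77.6 CPM, against no less than 33.1, 46.4 and 127 in WT. Tlcd1 overlaps Rpl23a on the other strand by 978 bases. Aldh1a7, an aldehyde dehydrogenase with near-identical relatives whose reads may be shared, had 28.8, 31.0 and 38.2 CPM in KO, against 111, 299 and 106 in WT, and is uncertain for that reason.

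The rule for named genes that held chose 24, with 12 in each direction, and they had adjusted p from 0.508 to 0.633 in edgeR's 6-library fit and from 0.194 to 0.218 in the 5-library fit. In edgeR's fit of 17 libraries 11 higher and 11 lower ones passed an adjusted p of 0.05, the others being Itgax and Tlcd1, and with all 18 libraries 7 higher and 9 lower ones did. All 24 passed in both DESeq2 fits. These fits include the libraries on which the genes were chosen, so the counts are descriptions. Of the 714 genes that held, 54 higher and 118 lower passed in the fit of 17 libraries, and 25 higher and 19 lower passed with all 18.

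The library left out decided many other genes. An unadjusted p under 0.05 was found with 5 libraries but not with 6 for 757 higher and 1149 lower genes, and with 6 but not with 5 for 136 higher and 159 lower genes. In 1046 of the 1149, WT2 lay at or under the highest KO library, as it did for Fasn, Me1 and Igfals, and in 592 of the 757 it lay at or over the lowest. These genes were chosen by a p that rose when WT2 was added, so the place of WT2 follows largely from that choice. Of the genes tested in both at an unadjusted p under 0.05 with 5 libraries, 184 had the opposite direction with 6. Egr2, a growth-induced transcription factor, had 5.32, 6.75 and 6.43 CPM in KO1, KO2 and KO3, against 1.91, 294 and 1.82 in WT1, WT2 and WT3. KO exceeded WT1 and WT3 in Egr2, and WT2 exceeded them all. Smooth muscle genes were higher in KO in 9 of 9 with 5 libraries (median 2.62), as were 59.9% of all genes. Their median was -1.05 between KO2 and WT1 and WT3. Synpo2 and Smtn were the members that held, where 2.47% of all genes held with higher levels. Smtn had 117, 49.8 and 126 CPM in KO, against 41.2, 23.0 and 36.7 in WT. Its log2 fold change was 0.35 between KO2 and WT1 and WT3. Erythroid genes were lower in 6 of 6 (median -1.20): Hbb-bt, a beta-globin, had 289, 544 and 325 CPM in KO, against 1074, 40.9 and 1208 in WT.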

How the data were processed

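Per the submitters' processing notes, the mm10 build was used, with RSEM, StringTie 1.3.1, HISAT2, Bowtie2 2.2.8 and fastp 0.18.0 as well as edgeR and DESeq2 named without their roles. The authors deposited expected counts and FPKM values per gene and library; 9.25% of the eWAT expected counts were not whole (tolerance 0.01) and were rounded. Of 22298 gene identifiers 22255 had a symbol, and 26 second identifiers of a symbol were kept apart. The fits used edgeR 4.0.16 (R 4.3.3): TMM factors, filterByExpr with a minimum count of 10 and total of 15, robust quasi-likelihood tests, and Benjamini-Hochberg adjustment over all genes tested, once on 6 libraries and once on the 5 with Adipoq of at least 100 CPM. DESeq2 1.42.0, limma 3.58.1 (voom, and log2 FPKM with a pseudocount of 1 or 0.1), other scalings, filters, covariates and library subsets were alternatives. The fits were run on simulated counts with 1 fixed spread for all genes and no outlying library, which is unlike these libraries. Replicates differed beyond 3 Poisson SD in 44.0% to 77.9% of genes, so none was a repeat deposit. Libraries, lists and alternatives were chosen with earlier results of these data known. Named were Bckdha, Adipoq, up to 12 genes per direction that held with groups apart, ranked by the larger p, and up to 3 per list, ranked by the 5-library p. Members of the lists named beyond these were chosen after their values were seen. Coordinates come from GENCODE M21 (mm10). Sequences come from RefSeq. Some members of the lists are not reported here by name.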

Additional observations from a re-analysis of the deposited data

How the results depend on the processing

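With 6 libraries, the count of 0 genes stood at 123 under DESeq2, 33 in the 3 libraries without abundant Crisp1 (where KO is 1 library, assumed to vary like the WT pair), 54 with all tissues in 1 fit, and 0 to 0 when single libraries were left out. With 5 libraries, the count of 0 stood at 1429 under DESeq2, 665 with all tissues, and 0 to 72 when single libraries were left out. The replicate number as a block gave 651 calls with 5 libraries (452 higher, 199 lower in KO). Replicate 2 has only KO2 in that fit, so these calls rest on replicates 1 and 3. With the block 332 genes held, 274 of them among the 714. Same-numbered KO and WT libraries deviated from their group means with correlations of -0.14, -0.48 and -0.16. Pairs of unlike number reached 0.58 (KO2 and WT3) and -0.53 (KO1 and WT3). These values cannot tell whether same-numbered libraries share more than a number. The 714 genes that held became 1134 under DESeq2 (705 shared), 1672 with all tissues (584 shared), 1220 on log2(FPKM + 1) (352 shared), 1227 with a pseudocount of 0.1, 1214 without a filter on FPKM, and 188 to 770 when single libraries were left out. RLE factors gave 722, no filter 711, limma-voom 572, an epididymis covariate 651, an adipocyte covariate 544, and the older dispersion method of edgeR, chosen after seeing the data, 627. The cause of these moves was not tested. Of 2487 alternatives over 136 named gene results, 2224 kept direction and side of the threshold, 254 newly passed it and 9 reversed, in 3 results: Bckdha with 6 libraries (-1.04 to 0.0596 when single libraries were left out, the last without WT3, and 0.0947, 0.10 and 0.0947 on the FPKM scales), Ccl7 with 5 (-0.38 with the replicate block, and -0.36, without KO2, to 4.18 when single libraries were left out), and Cry1 with 5 (0.022, 0.024 and 0.022 on the FPKM scales). List medians moved beyond their spread in 104 of 378 alternatives. With 3 libraries against 3, an exact permutation test of a single gene could not pass 0.05.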

Other observations

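Genes of cell division and of lymphocytes were also measured. Of 18 cell division genes 17 were higher in KO with 5 libraries, as were 59.9% of all genes. Their median was 1.10, or 0.53 without KO1, 1.69 without WT1 and 0.68 without WT3. Mcm3, Mcm5 and Bub1b held, where 2.47% of all genes held with higher levels. Mcm3, a subunit of the replicative helicase, had 14.4, 20.5 and 14 CPM in KO1, KO2 and KO3, against 10.1, 6.68 and 7.57 in WT1, WT2 and WT3, and the groups did not overlap. Igkc, the immunoglobulin kappa constant region, had 27.9, 37.6 and 33.4 CPM in KO, against 20.7, 8.35 and 5.07 in WT, while Ighm, the IgM heavy chain, had 88.6, 93.6 and 113 CPM in KO, against 167, 11.3 and 137 in WT. Igkc and Ighm thus differed in direction when KO is set against WT1 and WT3. Of 10 B cell and plasma cell genes 9 were higher with 5 libraries and 1 lower. Their median was 0.34, or -0.04 without KO3. All 10 T cell genes tested were higher (median 0.82) and 0 held, at a list mean of log2(CPM + 1) of 0.87 to 1.53 per library. Nr1d1, a clock repressor, had 69.4, 106 and 107 CPM in KO, against 54.8, 20.2 and 40.2 in WT, and held; no hour of sampling is given. Oasl2 was the interferon response gene of 17 that held, at 42.4, 46.2 and 45.3 CPM in KO, against 30.7, 15.2 and 20.3 in WT. Of the 17, 7 were higher and 10 lower with 5 libraries (median -0.13), and 2.47% of all genes held with higher levels. All KO libraries lay above WT1 and WT3 in 4 and under them in 4, where 17.3% and 19.6% of all genes were placed so. Nnat, an imprinted gene of the adipokine list named after its values were seen, had 342, 312 and 586 CPM in KO, against 129, 0.835 and 7.40 in WT, and did not hold.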
